A study of Caenorhabditis elegans with 8 samples.

Results

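The yolk proteins of *C. elegans* are encoded by 6 vitellogenin genes, *vit-1* to *vit-6*, and these 6 were taken by symbol from the 18877 genes measured on the arrays. *vit-1* (K09F5.2), *vit-2* (C42D8.2), *vit-3* (F59D8.1), *vit-4* (F59D8.2) and *vit-5* (C04F6.1) lie on chromosome X, and *vit-6* (K07H8.6) lies on chromosome IV. No other protein-coding gene lies between *vit-4* and *vit-3* (0 in the annotation). Their messages were examined in 3 strains that lack or restrict *age-1*, the catalytic subunit of the phosphatidylinositol 3-kinase that acts below the insulin-like receptor DAF-2, with the aim of finding genes that *age-1* regulates from another tissue. CY262 has the genotype *sqt-1(sc13) age-1(mg44)*; *bvIs1* and restores *age-1* in the intestine only, and it was hybridized to 3 arrays. CY251 has the genotype *sqt-1(sc13) age-1(mg44)*; *bvIs2* and restores *age-1* in neurons only, also on 3 arrays. The *age-1(mg44)* animals, on 2 arrays, were homozygotes from heterozygous mothers (strain SP75, in which *sqt-1(sc13)* and *age-1(mg44)* are carried over the balancer *mnC1*), so they retain maternal *age-1* product. Wildtype was Bristol N2, which carries neither *sqt-1(sc13)* nor *age-1(mg44)* and served as the second channel of all 8 arrays. Each transgene was represented by 1 integrated line, and the promoters that drive *bvIs1* and *bvIs2* are not given in the sources used here. All animals were whole hermaphrodites at the late L4 or young adult stage, after arrest as starved L1 larvae and 72 h of growth with OP50 bacteria at 20°C. Wildtype controls were of the same or a slightly later stage.

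Vitellogenins are large lipid-carrying proteins related to vertebrate apolipoprotein B. In *C. elegans* they are made in the intestine of the adult hermaphrodite, loaded with lipid, secreted into the body cavity and taken up by growing oocytes through the receptor RME-2, where they feed the embryo. *vit-1* to *vit-5* encode closely related large yolk polypeptides, and *vit-6* encodes a more distant precursor that is cleaved into smaller ones. Their transcription starts around the last molt, so their level depends on stage, and insulin-like signaling is known to affect it through the FOXO factor DAF-16.

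On each array RNA of one strain was labeled with Cy3 and wildtype RNA with Cy5, and the values below are either the raw signal of a spot or the log2 ratio of strain over wildtype after background correction and normalization. Of the 21482 spots of an array, 86.1% to 92.8% were well above background in each channel. The wildtype channel was saturated at 98 to 133 spots per array and the strain channel at 29 to 93. The dyes were not swapped, so a probe that takes up the 2 dyes unequally shifts its comparison with wildtype, and this does not cancel within a strain. The study used 3 wildtype replicates for 8 arrays, so arrays may share wildtype RNA: wildtype channels of arrays with one replicate number correlated at 0.993 to 0.997 across probes, against 0.958 to 0.989 for different numbers. In whole animals, fewer cells of a type and less RNA per cell cannot be told apart.

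The records of 4 arrays disagreed about their strain. The file names of 2 arrays are exchanged: CY262 replicate 2 in the records is named as CY251 replicate 2 and the reverse. In the deposited value table of log ratios, the values of the arrays recorded as CY262 replicate 2, CY262 replicate 3 and CY251 replicate 3 stand under CY251 replicate 3, CY251 replicate 2 and CY262 replicate 3, and those of CY251 replicate 2 under CY262 replicate 2. The *age-1(mg44)* arrays and replicate 1 of CY262 and CY251 were assigned alike in all sources. The sample records were used throughout, so every value of CY262 apart from CY251 carries this doubt, and the 6 arrays with a transgene as one set do not. The *age-1* message itself (B0334.8) was no check on the labels, with log2 ratios of -1.03, -1.66 and -1.71 in CY262, -1.05, -1.88 and -1.43 in CY251, and -1.06 and -1.64 in *age-1(mg44)*. All 3 strains were lower than wildtype (log2 -1.35 in *age-1(mg44)*, adjusted p = 0.0159 in limma), and the 6 transgenic arrays differed from the mutant by -0.11 (adjusted p = 0.947).

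In wildtype animals the yolk messages were too abundant for the scanner. All 6 genes were saturated in the wildtype channel on 8 of 8 arrays, at the ceiling of about 65517 units, and 73 of the 18877 genes were so. The ratio to wildtype is therefore bounded on the wildtype side, and the readable differences lie in the strain channel. There all 6 spots were saturated on CY262 replicate 2, where the strain channel was brighter as a whole (75th percentile of raw signal 1043, against 701 to 819 on the other arrays). The *vit-1* and *vit-5* spots were also saturated on CY251 replicate 3. The probes are not wholly separate. The *vit-2* probe also lists the *vit-1* transcript, and the *vit-4* and *vit-5* probes list each other's transcript, so values within each of these pairs are partly shared.

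The raw strain signal of the yolk genes was lowest, or among the lowest, in *age-1(mg44)* animals. For *vit-1*, it was 11313, saturated and 25528 on CY262 replicates 1 to 3, 33764, 8787 and saturated on CY251 replicates 1 to 3, and 6141 and 7870 in *age-1(mg44)*. All 6 transgenic arrays exceeded both mutant arrays, the closest being CY251 replicate 2. For *vit-2*, the signal was 16249, saturated and 44112 in CY262, 28004, 15261 and 58010 in CY251, and 10162 and 13616 in *age-1(mg44)*. For *vit-6*, it was 15733, saturated and 47092 in CY262, 21399, 15334 and 55764 in CY251, and 10560 and 12648 in *age-1(mg44)*. These 2 genes were also higher on each of the 6 transgenic arrays than on either mutant array, in a signal that is not scaled between arrays.

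The other 3 genes overlapped. The *vit-3* signal was 13876, saturated and 42812 in CY262, 29681, 13399 and 65056 in CY251, and 12681 and 15466 in *age-1(mg44)*. The *vit-4* signal was 14042, saturated and 49294 in CY262, 28610, 15655 and 63433 in CY251, and 12010 and 14666 in *age-1(mg44)*. The *vit-5* signal was 19029, saturated and 56736 in CY262, 36184, 18391 and saturated in CY251, and 17547 and 20977 in *age-1(mg44)*. In each of them CY262 replicate 1 lay between the 2 mutant arrays, and so did CY251 replicate 2 for *vit-3* and *vit-5*. Within each transgenic strain the arrays thus spread from near the mutant level to the ceiling.

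**Figure D1:**
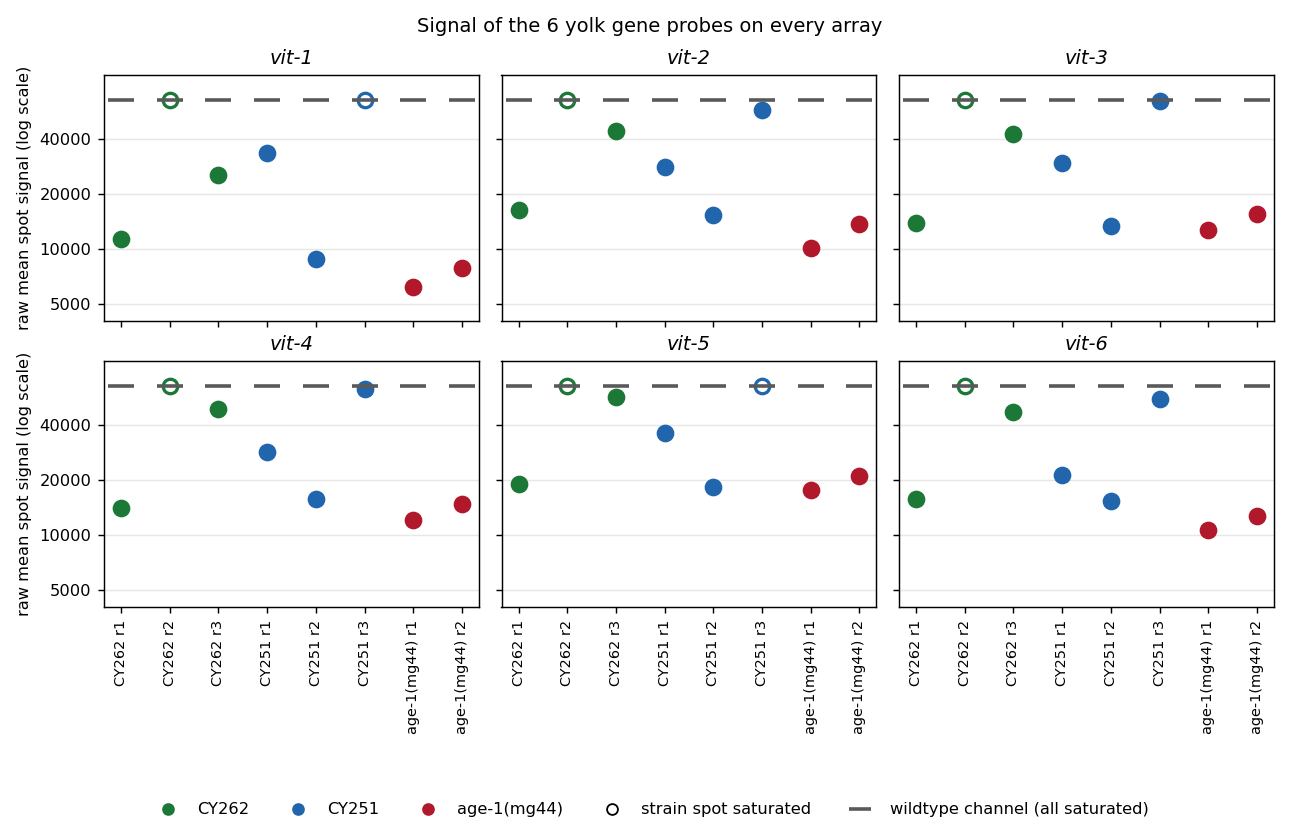
Raw strain signal (Cy3, arbitrary units, log axis) of *vit-1* to *vit-6* on each array, with 1 panel per gene, arrays in the order CY262, CY251 and *age-1(mg44)*, open points for saturated spots and gray dashes for the saturated wildtype signal. The 2 *age-1(mg44)* points of *vit-1* sit at 6141 and 7870, below all 6 transgenic arrays, while CY262 replicate 2 reaches the ceiling in every panel.

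The yolk signal of *age-1(mg44)* animals was below that of wildtype at each of the 6 genes, but no gene passed the test across all genes. The log2 ratios of the 2 *age-1(mg44)* arrays to wildtype were -2.27 and -1.95 for *vit-1*, -1.59 and -1.23 for *vit-2*, and -1.53 and -1.33 for *vit-6*. They were -1.29 and -1.07 for *vit-3*, -1.36 and -1.14 for *vit-4*, and -0.85 and -0.67 for *vit-5*. All 12 ratios were below 0.

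Because wildtype was at the ceiling, these differences are lower limits as far as saturation goes, but not with regard to sampling or scaling. They were taken as the mean normalized wildtype value over that of the mutant. The estimates in *age-1(mg44)* were 4.32-fold lower than wildtype for *vit-1*, 2.65-fold for *vit-2* and 2.70-fold for *vit-6*. They were 2.26-fold for *vit-3*, 2.37-fold for *vit-4* and 1.70-fold for *vit-5*. In limma the log2 change was -2.11 ± 0.64 (SE, adjusted p = 0.0627) for *vit-1*, -1.41 ± 0.45 (adjusted p = 0.0750) for *vit-2* and -1.43 ± 0.46 (adjusted p = 0.0761) for *vit-6*. It was -1.18 ± 0.52 (adjusted p = 0.164) for *vit-3*, -1.25 ± 0.50 (adjusted p = 0.130) for *vit-4* and -0.76 ± 0.43 (adjusted p = 0.256) for *vit-5*. At the threshold of 0.05, 0 of 6 yolk genes were called, against 19.7% of all genes in either direction and 8.01% lower. At an unadjusted p under 0.05 there were 4 of 6 in limma, where 34.8% of all genes were, and the methods' t-test found 6 of 6, where it found 53.1% of all genes, and 0 after adjustment. The median of the 6 log2 changes was -1.33, and that of all genes was -0.01. The call depended on the scaling: with median centring in place of loess, *vit-1*, *vit-2*, *vit-4* and *vit-6* passed the threshold, as did 59.6% of all genes. Without CY251 replicate 2 *vit-1* passed it, without CY251 replicate 3 *vit-6* did, and with ratios of 2 saturated spots left out *vit-1* did.

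**Figure D2:**
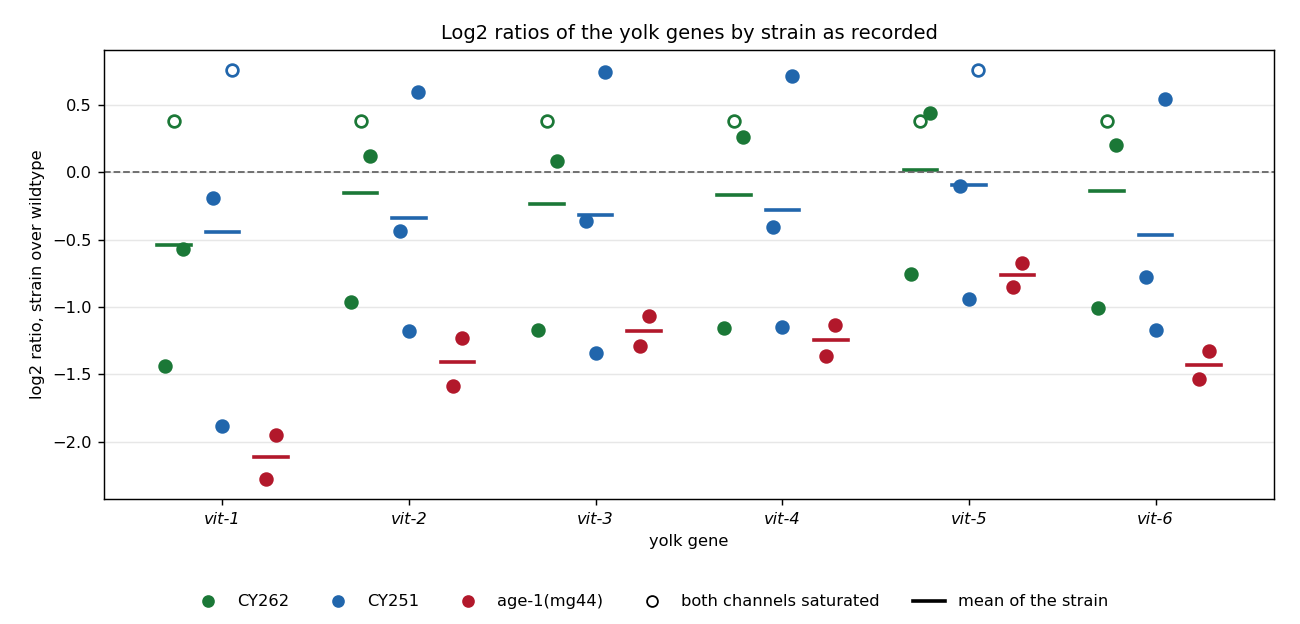
Log2 ratio of strain over wildtype of each yolk gene, by strain in the order CY262, CY251 and *age-1(mg44)*, with 1 point per array, open where both channels were saturated, and a bar at the strain mean. The *age-1(mg44)* points lie between -2.27 and -0.67, all below 0, while the transgenic arrays spread to both sides of it.

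A second *vit-6* probe was dim enough to be read in both channels. It is designed for the transcript K07H8.6b and was not saturated on any of the 8 arrays. The strain signal above background was 66.2, 348 and 166 in CY262, 77.2, 69.2 and 190 in CY251, and 51.8 and 52.5 in *age-1(mg44)*, and wildtype lay between 288 and 444. The mutant arrays were the lowest, and CY262 replicate 2 was again the highest, in a signal not scaled between arrays. The mutant spots were little above background, with raw signals of 407.8 and 407.5 over local backgrounds of 356 and 355.

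At this probe the log2 ratios were -0.65, 0.29 and -0.01 in CY262, -0.53, -1.27 and 0.26 in CY251, and -1.09 and -1.33 in *age-1(mg44)*. The change in *age-1(mg44)* against wildtype was -1.21 ± 0.36 (SE, limma adjusted p = 0.0607), with both arrays below 0. The value moved with the background correction. Agilent's processed signal gave -2.06 (adjusted p = 0.0268) and Agilent's own log ratio -2.17 (adjusted p = 0.0295). With no background subtraction it was -0.41, and the methods' t-test, which subtracts none and scales by the array mean, gave -0.03, where the median of all genes was 0.54. The 6 transgenic arrays were higher than *age-1(mg44)* by 0.89 ± 0.42 (SE, adjusted p = 0.648), and 5 of 6 lay above both mutant arrays. Over the 8 arrays its ratio followed the mean of the 6 main probes with Pearson r = 0.957, a description of arrays that share these labelings and scans.

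**Figure D3:**
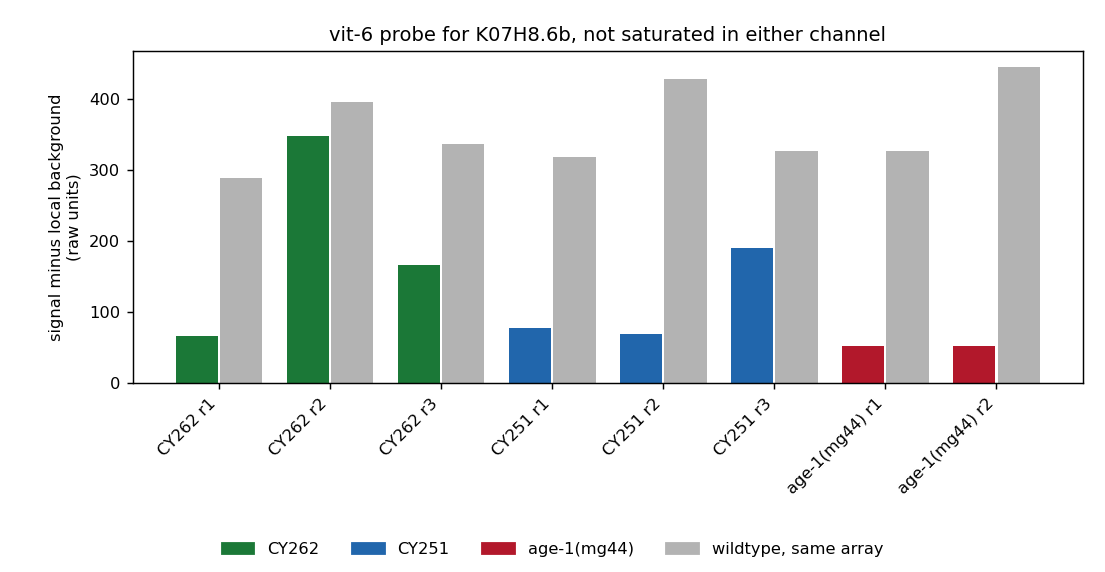
Signal above local background (arbitrary units) of the K07H8.6b probe of *vit-6* on each array, for the strain (Cy3) and wildtype (Cy5). Wildtype stays between 288 and 444, and the strain channel is at 51.8 and 52.5 in *age-1(mg44)* and at 66.2 to 348 in the transgenic strains.

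In CY262 and CY251 no yolk gene was called different from wildtype, but with wildtype at the ceiling this does not show likeness to it. The log2 ratios of *vit-1* were -1.44, 0.38 and -0.57 in CY262 and -0.19, -1.89 and 0.76 in CY251. Those of *vit-2* were -0.96, 0.38 and 0.12 in CY262 and -0.43, -1.18 and 0.60 in CY251. Those of *vit-6* were -1.004, 0.38 and 0.20 in CY262 and -0.78, -1.17 and 0.55 in CY251. In both strains replicates differed by over 1 log2 unit. With wildtype at the ceiling each ratio is an upper limit where the strain spot was readable, so a ratio above 0 does not place the strain above wildtype. The 0.38 of CY262 replicate 2, and the 0.76 of CY251 replicate 3 for *vit-1*, are ratios of 2 saturated spots and carry no information on the yolk message.

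Over the 6 genes the median log2 change was -0.16 in CY262 and -0.33 in CY251, against medians of -0.01 over all genes in each. Both medians turned with single arrays, to 0.27 in CY262 without its replicate 1 and 0.17 in CY251 without its replicate 2. Without CY251 replicate 3 the median of CY251 was -0.83, without CY262 replicate 2 or 3 that of CY262 was -0.43 or -0.35, and without the arrays whose records disagree it was -1.08. Of the 6, 0 were called in CY262, where 32.5% of all genes were, and 0 in CY251, where 31% were. Adjusted p lay between 0.450 and 0.970 in CY262 and between 0.390 and 0.860 in CY251 in limma, and 0 of 6 had an unadjusted p under 0.05 in either strain, where 45.5% of all genes in CY262 and 42.5% in CY251 did. With all 3 arrays of CY251, whose median turned as above, *vit-2* was 1.26-fold lower, *vit-3* 1.25-fold, *vit-4* 1.21-fold and *vit-6* 1.38-fold. As far as saturation goes, only the *vit-6* value is a lower limit. On CY251 replicate 3 the strain spots of *vit-2*, *vit-3* and *vit-4* held 2, 20 and 12 saturated pixels, so their values are not limits. No limit can be given for CY262, or for *vit-1* and *vit-5* in CY251, since an array of the strain was saturated as well.

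Each yolk gene had a higher mean in the transgenic strains than in *age-1(mg44)*, and none passed the test. With the 6 transgenic arrays together, the log2 difference from *age-1(mg44)* was 1.62 ± 0.73 (SE) for *vit-1*, 1.16 ± 0.52 for *vit-2* and 1.13 ± 0.53 for *vit-6*. It was 0.90 ± 0.60 for *vit-3*, 1.02 ± 0.58 for *vit-4* and 0.72 ± 0.49 for *vit-5*. The ratios of 2 saturated spots enter these values. Without them the difference was 1.09 for *vit-1*, 1.03 for *vit-2*, 0.75 for *vit-3*, 0.89 for *vit-4*, 0.42 for *vit-5* and 0.996 for *vit-6* (limma adjusted p from 0.689 to 0.848). Over all arrays, adjusted p in limma lay between 0.641 and 0.754, and 0 of 6 genes were called, with 0.0265% of all genes called in either direction and 0% higher. The lowest unadjusted p was 0.0641, and 8.15% of all genes were under 0.05. The median over the 6 genes was 1.07 and that over all genes 0.02. CY262 alone gave a median of 1.17 (adjusted p from 0.773 to 0.877, 0 called, 0.0265% of all genes called) and CY251 alone 0.97 (adjusted p from 0.736 to 0.897, 0 called, 0.0053% of all genes called). In each, 0 yolk genes had an unadjusted p under 0.05, against 6.76% of all genes in CY262 and 6.79% in CY251. The CY251 median was 0.46 without CY251 replicate 3 and 0.62 with a replicate block, and the CY262 median was 0.65 by file name. These comparisons share the 2 *age-1(mg44)* arrays with each other and with the comparison of *age-1(mg44)* with wildtype, so a low value on those arrays lowers that comparison and raises the others.

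In the ratios, 3 of the 6 genes separated the transgenic from the mutant arrays without overlap, and in the strain channel scaled between arrays 0 of 6 did. The 3 were *vit-1*, *vit-2* and *vit-6*, which also separated in the unscaled raw signal, and 5.59% of all genes had all 6 transgenic arrays above both mutant arrays and 5.61% below. The margins were small. The lowest transgenic ratio was -1.89 and the highest mutant ratio -1.95 for *vit-1*, -1.18 and -1.23 for *vit-2*, and -1.17 and -1.33 for *vit-6*. For *vit-3* and *vit-5*, 4 of the 6 transgenic arrays lay above both mutant arrays, 1 between them and 1 below, and for *vit-4*, 4 lay above and 2 between.

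The strain channel taken by itself, scaled between arrays by quantiles and free of the saturated wildtype spots, gave differences of similar size in the means but no gene without overlap. CY251 replicate 2 lay within the mutant range for *vit-1* (12.96, against 12.47 and 13.24 in *age-1(mg44)*), *vit-2* (13.76, against 13.29 and 14.003) and *vit-6* (13.79, against 13.38 and 13.86) on this log2 scale, and the other 5 transgenic arrays lay above both mutant arrays. All 6 transgenic arrays lay above both mutant arrays for 0 of 6 yolk genes and for 8.89% of all genes. As means, the 6 transgenic arrays exceeded *age-1(mg44)* by 1.81 for *vit-1* (limma adjusted p = 0.368), 1.29 for *vit-2* (adjusted p = 0.370) and 1.24 for *vit-6* (adjusted p = 0.384), and by 0.92 for *vit-3*, 1.09 for *vit-4* and 0.73 for *vit-5*. Saturated strain spots enter these means at the ceiling, which holds them down.

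CY262 and CY251 were not separated by any yolk gene. The median log2 difference of CY262 from CY251 was 0.11, adjusted p was above 0.99 for all 6 genes, and 0 of 6 were called, as was 0% of all genes in limma, and at an unadjusted p under 0.05 there were 0 of 6, where 148 genes (0.784%) were. Which strain was the higher depended on the source of the assignment. The mean log2 ratio of the 6 genes was -0.20 ± 0.77 in CY262 and -0.32 ± 0.98 in CY251 (SD, n = 3 each) as recorded. By the file names it was -0.76 ± 0.74 in CY262 and 0.23 ± 0.55 in CY251, and by the value table -0.56 ± 1.08 in CY262 and 0.03 ± 0.38 in CY251. The mean of *age-1(mg44)* was -1.36 ± 0.18 (SD, n = 2) in each. The median difference between the strains changed sign with it, to -0.88 by the file names and -0.58 by the value table. It also changed sign with single arrays, to -0.13 without CY262 replicate 2, -0.08 without CY262 replicate 3 and -0.32 without CY251 replicate 2. Across probes, strain channels of one strain correlated at 0.966 to 0.991 and those of different strains at 0.959 to 0.991 as recorded, against 0.972 to 0.991 and 0.959 to 0.978 by the file names. The array recorded as CY262 replicate 2 correlated at 0.983 and 0.991 with CY251 replicates 1 and 3. With CY262 replicates 1 and 3 it was at 0.970 and 0.966. The array recorded as CY251 replicate 2 correlated at 0.989 and 0.976 with CY262 replicates 1 and 3. With CY251 replicates 1 and 3 it was at 0.975 and 0.976.

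**Figure D4:**
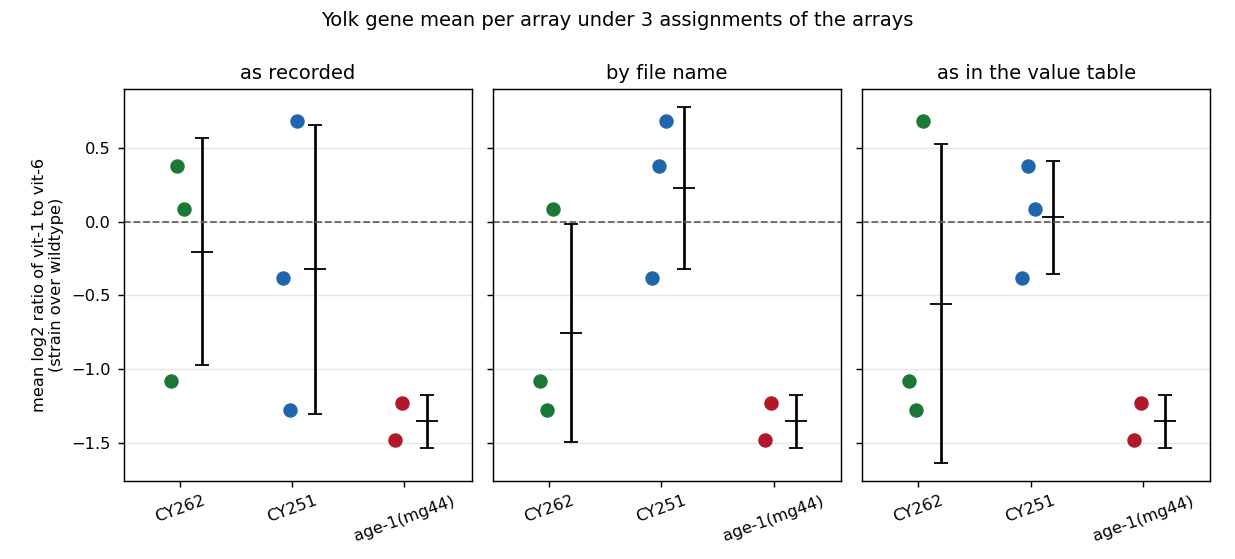
Mean log2 ratio over the 6 yolk genes on each array, grouped into CY262, CY251 and *age-1(mg44)* as recorded, by file name and as in the value table, with the mean ± SD of each strain. The CY262 mean lies above that of CY251 as recorded (-0.20 and -0.32) and below it by file name (-0.76 and 0.23), while *age-1(mg44)* is at -1.36 in all 3.

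The ratios of the 6 genes rose and fell together, in part because of saturation. Pairs of yolk genes correlated at r = 0.915 to 0.992 over the 8 arrays, which share the saturated wildtype ceiling and one normalization per array. On CY262 replicate 2 both channels were saturated for all 6 genes, which fixed their ratios at 0.38. On CY251 replicate 3 the same held for *vit-1* and *vit-5* (0.76). The *vit-1* and *vit-2* probes, and the *vit-4* and *vit-5* probes, also share listed transcripts. The correlations are therefore partly set by saturation and shared probes. The mean of the 6 log2 ratios was -1.08, 0.38 and 0.09 in CY262, -0.38, -1.28 and 0.69 in CY251, and -1.48 and -1.23 in *age-1(mg44)*. The 3 arrays with a mean above 0 were CY262 replicates 2 and 3 and CY251 replicate 3. For CY262 replicate 2 that mean comes from ratios of saturated spots alone. These are the 3 arrays of the second run of slide numbers, which holds no *age-1(mg44)* array. Within the first run alone the transgenic arrays exceeded *age-1(mg44)* by 0.87 for *vit-1* (limma adjusted p = 0.780), 0.52 for *vit-2* (adjusted p = 0.765), 0.44 for *vit-6* (adjusted p = 0.751) and 0.43 for the K07H8.6b probe (adjusted p = 0.782). For *vit-3* the difference there was 0.17, for *vit-4* 0.28 and for *vit-5* 0.12 (adjusted p from 0.810 to 0.921). In the second run, slide run and transgene cannot be told apart. Only CY262 replicate 2 was extracted from its image on another day.

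The genes most like the yolk mean included 1 of its regulators. Among 14448 genes that were unsaturated and well above background in both channels on all 8 arrays, the 5 with the highest Pearson correlation to the yolk mean were *aat-8* (r = 0.993), *tsr-1* (r = 0.991), *hlh-15* (r = 0.982), C02F5.12 (r = 0.979) and *elt-2* (r = 0.976). Without CY262 replicate 2 the 5 values were 0.971 to 0.994. The median r of all candidates was 0.05, and 73 genes (0.505%) exceeded 0.9. *aat-8*, an amino acid transporter family member, moved little, between 0.01 and 0.15 on the log2 scale. Its raw strain signal was low, 393 to 428, where the local background at the yolk spots was about 355. *tsr-1* moved as far as the yolk genes, with ratios of -1.42, -0.05 and -0.55 in CY262, -0.80, -1.61 and 0.35 in CY251, and -1.71 and -1.66 in *age-1(mg44)*. Its change in *age-1(mg44)* against wildtype was -1.68 (limma adjusted p = 0.0516). C02F5.12 was called lower than wildtype in *age-1(mg44)*, with a log2 change of -0.73 (limma adjusted p = 0.0203). It was also called lower in CY262 (-0.41, adjusted p = 0.0438) and CY251 (-0.46, adjusted p = 0.0303). The transgenic arrays together exceeded the mutant by 0.30 at this gene, which was not called (adjusted p = 0.701).

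*elt-2*, a GATA factor that sustains intestinal gene expression and binds *vit* promoters, was the regulator closest to the yolk mean. Its log2 ratios were 0.40, 0.79 and 0.68 in CY262, 0.63, 0.33 and 0.82 in CY251, and 0.34 and 0.26 in *age-1(mg44)*. It was higher than wildtype in CY262 (0.62, limma adjusted p = 0.00856) and CY251 (0.59, adjusted p = 0.00875), it had 0.30 in *age-1(mg44)* (adjusted p = 0.166), and the transgenic arrays exceeded the mutant by 0.30 (adjusted p = 0.685). *unc-62*, a homeodomain factor of the Meis family that activates *vit* genes in the intestine, had -0.25, 0.56 and 0.43 in CY262, -0.34, -0.02 and 0.22 in CY251, and -0.44 and -0.29 in *age-1(mg44)*. The transgenic arrays exceeded the mutant by 0.46 (limma adjusted p = 0.687), with r = 0.793 to the yolk mean, rank 342. *ceh-60*, a PBX-type partner of *unc-62*, was well above background on 0 arrays and *rict-1*, a subunit of the TORC2 kinase complex, on 1, so neither is read.

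Of the 9 yolk regulators examined, 5 were called higher than wildtype in CY262, 4 in CY251 and 0 in *age-1(mg44)*, and 0 lower. Over all genes 18.2% were called higher and 14.3% lower in CY262, 18.3% higher and 12.7% lower in CY251, and 11.7% higher in *age-1(mg44)*. Beside *elt-2*, these were *mab-3*, a DM-domain factor that represses *vit* genes in males (0.37 in CY262, 0.32 in CY251), *daf-16* (0.40 in CY262, 0.31 in CY251) and *sgk-1*, a kinase downstream of TORC2 (0.61 in CY262, 0.52 in CY251), and in CY262 also *pqm-1*, a zinc finger factor (0.46). The direction of these small changes was not firm. With median centring *daf-16* (-0.53 in CY262, -0.69 in CY251), *mab-3* (-0.52 in CY262, -0.64 in CY251) and *pqm-1* (-0.48 in CY262) were called lower than wildtype (limma adjusted p from 0.00204 to 0.00854), and *sgk-1* was at 0 in CY251. With the scaling of the methods' t-test *daf-16*, *mab-3* and *pqm-1* were also below 0, and *mab-3* in CY251 (-0.36, adjusted p = 0.0434) and *pqm-1* in CY262 (-0.30, adjusted p = 0.0320) passed there as well. In *age-1(mg44)* against wildtype *daf-16* had -0.08, *mab-3* 0.10, *pqm-1* 0.31 and *sgk-1* 0.44 (limma adjusted p from 0.149 to 0.644). Against *age-1(mg44)*, 9 of 9 regulators lay above 0 with the transgenic arrays together, with a median of 0.12, and 0 were called. That count includes *ceh-60* and *rict-1* (0.06 each), which are not read. The median of all genes was 0.02, and the share of all genes above 0 is not given here.

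The 14 genes for assembly and uptake of yolk held calls in both directions. In CY262, 3 were called higher and 2 lower than wildtype, shares near those of all genes (18.2% higher and 14.3% lower). In CY251 there were 1 higher and 2 lower (18.3% and 12.7% of all genes), and in *age-1(mg44)* 1 higher and 3 lower (11.7% and 8.01% of all genes). *dsc-4* encodes the large subunit of the microsomal triglyceride transfer protein, which loads lipid onto vitellogenin-like proteins. Its log2 ratios were 1.86, 1.03 and 1.64 in CY262, 0.92, 1.89 and 1.37 in CY251, and 0.74 and 1.42 in *age-1(mg44)*, and it was called higher than wildtype in CY262 (1.51, limma adjusted p = 0.00559), CY251 (1.39, adjusted p = 0.00607) and *age-1(mg44)* (1.08, adjusted p = 0.0452). All 8 arrays were above 0. In *age-1(mg44)* the strain spots of the yolk genes were readable, and every yolk gene had ratios below 0, where *dsc-4* had ratios above 0. That difference was not tested. In CY262 and CY251 no contrast with the yolk genes is drawn, since some of their strain spots were saturated as well. In the mutant *dsc-4* no longer passed the threshold under 11 of 26 alternatives, 5 of which left out a single array (CY262 replicate 1 or 3, CY251 replicate 3, or either mutant array).

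*rme-2*, the yolk receptor of the oocyte, had ratios of -0.70, -2.25 and -2.64 in CY262, -0.54, -2.62 and -1.94 in CY251, and -0.81 and -2.72 in *age-1(mg44)*. All were below wildtype, and replicate 1 of each strain was the least changed. The wildtype channel also differed by replicate number. There the summed signal of the assembly and uptake genes was 17935 to 23361 on the replicate 1 arrays and 31395 to 54165.5 on the others. In the strain channel it was 13705 to 18838.5 and 14094 to 21775. The part of the wildtype channel in the *rme-2* ratios was not tested. The fitted change was -1.86 in CY262 (limma adjusted p = 0.0453), -1.70 in CY251 (adjusted p = 0.0615) and -1.77 in *age-1(mg44)* (adjusted p = 0.122). The call in CY262 was lost under 10 of 26 alternatives, among them the loss of CY262 replicate 2 or 3 or of CY251 replicate 3. *rme-6*, an activator of the early endosome GTPase RAB-5, was lower in all 3 strains (-0.96 in CY262, -0.92 in CY251 and -0.99 in *age-1(mg44)*). *chc-1*, the clathrin heavy chain, was lower in *age-1(mg44)* (-1.28, limma adjusted p = 0.0178), and it had 0.07 in CY262 and -0.44 in CY251. Its excess in the transgenic arrays over the mutant was 1.10 (adjusted p = 0.455).

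The remaining calls were *rme-4*, which encodes a DENN-domain protein, lower in CY251 (-0.25) and *age-1(mg44)* (-0.38), and *rme-1*, an EHD protein of the recycling endosome, higher in CY262 (0.98). *rab-11.1*, a GTPase of the recycling endosome, was higher in CY262 (0.74), but it fell below 0 with median centring (-0.20) and in the scaling of the methods' t-test (-0.08). Against *age-1(mg44)*, 13 of the 14 genes lay above 0 with the transgenic arrays together, with a median of 0.26, and 0 were called. The median of all genes was 0.02, and the share of all genes above 0 is not given here. Of all 21 calls of regulators and uptake genes against wildtype, 14 kept their direction under all 26 alternatives, and each was called in 9 to 24 of them.

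Tissue markers also differed from wildtype on these arrays. Of 12 intestinal markers, the tissue that makes yolk, 9 were called higher in CY262 (18.2% of all genes), 9 in CY251 (18.3%) and 4 in *age-1(mg44)* (11.7%), and 0 were called lower, with medians of 1.43 in CY262, 1.60 in CY251 and 1.01 in *age-1(mg44)* (*elt-2* is in this list too). Among them *asp-1*, called higher in each strain, was saturated in either channel on 8 arrays and *cpr-6* on 3. Both enter the sum. The summed normalized signal of the 12 markers was 155022 to 181101 in CY262, 151014 to 195440 in CY251 and 142241 to 153635 in *age-1(mg44)*, against 98616 to 114471 in wildtype. In *age-1(mg44)*, under the loess scaling used here, 10 of the 12 markers had a change above 0. The exceptions were *cpr-6* (-0.69) and *elt-7* (-0.06). The yolk ratios on these arrays were below 0, and how the 2 relate was not tested. Of 15 markers of oocytes and eggshell, the cells that take up yolk, 11 were called lower in CY262 (14.3% of all genes), 11 in CY251 (12.7%) and 8 in *age-1(mg44)* (8.01%), and 0 higher, with medians of -1.22 in CY262, -1.32 in CY251 and -1.55 in *age-1(mg44)*. Their sum was 55028 to 100660 in CY262, 65177 to 80688 in CY251 and 55735 to 59299 in *age-1(mg44)*, against 114007 to 242400 in wildtype. It includes *cpg-2*, saturated in either channel on 5 arrays, and *perm-2*, saturated on 3. All 26 major sperm protein genes, made during the sperm-forming stage before oocytes, were called higher in each strain, with medians of 6.21 in CY262, 6.59 in CY251 and 6.48 in *age-1(mg44)*. Their sums were 975007 to 1696140 in CY262, 1582410 to 2358410 in CY251 and 1110510 to 1581780 in *age-1(mg44)*, against 10884 to 50726 in wildtype.

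Of 147 cuticle collagens, 99 were called higher and 2 lower in CY262, 98 higher and 0 lower in CY251, and 65 higher and 1 lower in *age-1(mg44)*, beside the same shares of all genes. Between the transgenic arrays together and *age-1(mg44)*, 0 genes of these 4 lists were called, and the medians were 0.34 for intestine, 0.28 for oocyte and eggshell, -0.35 for sperm and 0.29 for collagens, beside 1.07 for the yolk genes. The part of these stage and tissue differences in the yolk result was not tested.

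**Figure D5:**
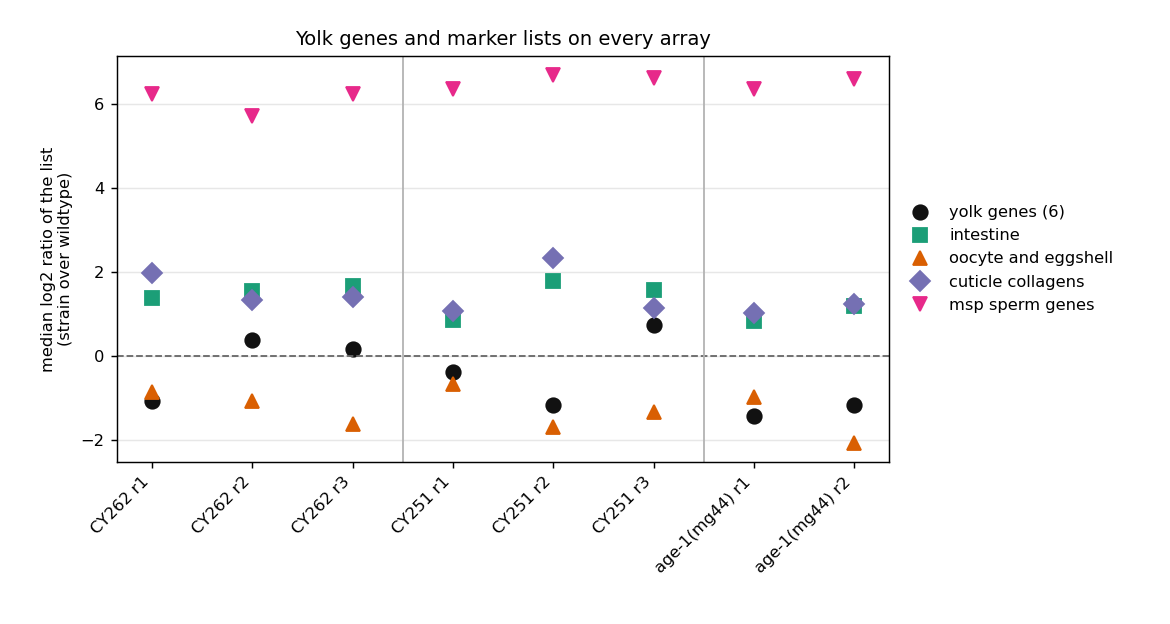
Median log2 ratio of strain over wildtype per array for the yolk genes, intestinal markers, oocyte and eggshell markers, cuticle collagens and major sperm proteins, arrays in the order CY262, CY251 and *age-1(mg44)*. The sperm median stays between 5.72 and 6.71 and the intestinal median between 0.83 and 1.79 on all 8 arrays, while the yolk median runs from -1.45 to 0.73.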

How the data were processed

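RNA of 3 strains and of wildtype was measured on 8 two-color Agilent arrays. Per the file headers, the authors read the spots with Agilent Feature Extraction. The deposited intensity values hold mean signal, local background and a processed signal, and the deposited log10 values are the ratio of Cy5 (wildtype) over Cy3 (strain), whose sign was turned here. With R 4.3.3 and limma 3.58.1 the mean signal was background-corrected (normexp, offset 50), normalized by loess within each array and stripped of outlier spots. A minimum mean raw wildtype signal of 100 removed 0 of 20401 probes. The brightest probe stood for each of 18877 genes. The systematic name of a probe gave its sequence name, and 564 probes had none. Symbols came from RefSeq (WBcel235) for 18124 genes. One limma fit over 8 arrays had a mean per strain, with Benjamini-Hochberg adjustment over all genes and a threshold of 0.05. It was tested on simulated data. The number of arrays limits the precision.

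Groups came from the sample records, whose submitters call the arrays of a strain biological replicates. The genes named were the 6 yolk genes, 9 regulators and 14 assembly or uptake genes (by counts, with values for set names and for calls), and the 5 genes most like the yolk mean. These members and lists were chosen with earlier results of these data known. Arrays sharing a replicate number deviated together in 6 of 7 pairs (r of deviations from 0.23 to 0.79), but not in replicate 2 of CY262 and CY251 (-0.16), whose file names are exchanged. A block was to be used only if every pair deviated together, so the fit carries none, and blocks are alternatives. The fit thus treats as independent arrays that may share wildtype RNA, which bears on every call against wildtype. Alternatives covered background, scaling, filters, saturated spots, probe choice, variance prior, single arrays, assignment, day of extraction, replicate block and the methods' t-test. Slide runs, fits joining assignment to the block, a random block and leaving out ratios of 2 saturated spots were added after seeing the data. The value table of the series was used only for the assignment of arrays.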

Additional observations from a re-analysis of the deposited data

How the results depend on the processing

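Saturation limits every ratio of the 6 main probes, and with saturated spots left out only the K07H8.6b probe of *vit-6* remained. All 6 genes and that probe kept their direction under every alternative, in *age-1(mg44)* against wildtype (*vit-1* from -2.47 to -1.93, limma adjusted p from 0.00579 to 0.289) and in the transgenic arrays together against *age-1(mg44)* (*vit-1* from 0.83 to 2.15). The count of yolk genes called lower in *age-1(mg44)*, 0 of 6, became 3 with Agilent's processed signal (*vit-1*, *vit-2*, *vit-6*; 23.5% of all genes called), 4 with median centring, 3 with arrays assigned by file name (25.3%), 1 with the value table (*vit-1*, 19.6%), 2 without the arrays whose records disagree (*vit-1*, *vit-6*; 4.65%), 1 in the first slide run alone (*vit-6*, 7.37%) and 1 with ratios of 2 saturated spots left out (*vit-1*, adjusted p = 0.0412). Leaving out 1 array gave 0 to 1, with *vit-1* called without CY251 replicate 2 (adjusted p = 0.0284) and *vit-6* without CY251 replicate 3 (adjusted p = 0.0456). In CY251 against wildtype it became 1 in the first slide run alone (*vit-6*), and in CY262 against wildtype 1 by file name (*vit-1*). The cause was not tested.

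The replicate block as recorded called 0 yolk genes in the 4 comparisons between strains (*vit-1* 1.33 with the transgenic arrays together, limma adjusted p = 0.449). Joined to the assignment by file name, it called 1, *vit-1*, in CY251 against *age-1(mg44)* (2.13, adjusted p = 0.0245, 6.13% of all genes called), in the transgenic arrays together (1.33, adjusted p = 0.0497, 3.87%) and in CY262 against CY251 (-1.61, adjusted p = 0.0450, 1.54%). With the replicate number as a random block (correlation 0.43), which also bears on the comparisons with wildtype, 0 yolk genes were called in any comparison, and *vit-1* in *age-1(mg44)* against wildtype was -1.93 (adjusted p = 0.114). The median of CY262 against *age-1(mg44)*, 1.17, was 0.32 by file name with the replicate block, 0.22 with the slide run as a block and 0.26 without the arrays whose records disagree. That of CY251 against *age-1(mg44)*, 0.97, was 0.48 with the slide run as a block and 1.48 by file name, and that of CY251 against wildtype, -0.33, was 0.24 by file name, where that of CY262 against wildtype was -0.68. Among all genes, 59.3% of the calls in *age-1(mg44)* against wildtype were higher, against 49.2% with median centring, and 59% in CY251 against wildtype, against 44% in Agilent's log ratio as deposited. *dsc-4* lost its call under 3 alternatives in CY251 and 2 in CY262, and *rme-2* gained one under 3 in CY251 and 2 in *age-1(mg44)*.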
